A study of Mus musculus with 6 samples.

Results

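The 10 genes described here are transcription factors and cofactors of the intermediate mesoderm and of the genital ridge, namely Wt1, Osr1, Pax2, Pax8, Lhx1, Sall1, Eya1, Emx2, Lhx9 and Nr5a1. They were taken by gene symbol, and all 10 had a probe set among the 24675 genes with a symbol in the platform annotation. The rule used no measured values, but the members were chosen with earlier results of these data known. The samples were laser-microdissected tissue from mouse embryos of the C57Bl/6 strain at embryonic day 10.5. The ventral group was 3 arrays of tissue from underneath the dorsal aorta, and the dorsal group was 3 arrays of tissue from between the notochord and the aortic roof. Both groups came from the same embryos, carried no stated genetic change or treatment, and were amplified from 200 to 1000 pg of RNA before hybridisation to Affymetrix mouse Gene 2.0 ST arrays, per the labels. The regions were defined by position alone, and how many embryos or sections stood behind an array is not stated in these sources.

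The intermediate mesoderm lies between the somites and the lateral plate and gives rise to the nephric duct, the kidneys and much of the gonad. Osr1 and Lhx1 mark this mesoderm early, and Pax2 and Pax8 then commit cells to the nephric lineage. Wt1, Emx2, Lhx9 and Nr5a1 act in the coelomic epithelium that thickens into the genital ridge, from which the somatic cells of the gonad and the adrenal cortex arise. Together with the aorta these tissues form the aorta-gonad-mesonephros region, where the first haematopoietic stem cells appear. The comparison asks whether the regulators of this neighbouring tissue differ between the ventral and the dorsal side of the aorta.

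None of the 10 regulators differed between ventral and dorsal tissue past the threshold of limma, an adjusted p of 0.05 over all 24675 genes. Their adjusted p lay between 0.384 for Sall1 and 0.990 for Wt1. Over all genes the share called was 0%, and the lowest adjusted p of the table was 0.197. Without the replicate number as a block it was 0.00405%, and the adjusted p of the regulators then lay between 0.262 and 0.994. The clearest separation was in Sall1, a zinc finger factor of kidney progenitors, which had a 1.94-fold higher mean in dorsal tissue. Pax8 had a 1.39-fold higher dorsal mean, and Lhx1 a 1.24-fold higher ventral mean. For these 3 of 10 genes the ventral and dorsal arrays did not overlap, which was so for 18.7% of all genes. For the genital ridge genes Wt1, Emx2, Lhx9 and Nr5a1 the groups overlapped, with mean differences of 1.01-fold, 1.01-fold, 1.10-fold and 1.22-fold. In bulk tissue, fewer cells of a type and less RNA per cell cannot be told apart.

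The stretches before the start sites of Sall1, Pax8 and Lhx1 are shown to give sequence context for the 3 regulators whose groups did not overlap. Each is the 250 bases upstream of the outermost start in RefSeq on build GRCm38.p6, written 5′ to 3′ along the gene, with CG dinucleotides, the sites of DNA methylation in vertebrates, in capitals.
Sall1 (chr8:89044163-89044412, minus strand): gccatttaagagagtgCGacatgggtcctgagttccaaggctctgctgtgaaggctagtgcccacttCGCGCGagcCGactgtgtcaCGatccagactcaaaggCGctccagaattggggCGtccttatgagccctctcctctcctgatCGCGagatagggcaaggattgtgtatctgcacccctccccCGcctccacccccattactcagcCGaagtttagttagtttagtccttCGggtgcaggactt
Pax8 (chr2:24475600-24475849, minus strand): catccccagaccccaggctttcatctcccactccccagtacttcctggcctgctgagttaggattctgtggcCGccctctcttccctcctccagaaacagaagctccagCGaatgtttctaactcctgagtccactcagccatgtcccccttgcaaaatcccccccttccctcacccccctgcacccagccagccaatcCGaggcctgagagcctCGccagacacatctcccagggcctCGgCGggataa
Lhx1 (chr11:84525535-84525784, minus strand): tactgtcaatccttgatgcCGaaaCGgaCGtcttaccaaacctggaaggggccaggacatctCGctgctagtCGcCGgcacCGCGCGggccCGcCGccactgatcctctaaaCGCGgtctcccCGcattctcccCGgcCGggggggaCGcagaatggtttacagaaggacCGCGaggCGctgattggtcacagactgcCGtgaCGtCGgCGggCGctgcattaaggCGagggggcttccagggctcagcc
The printed window of Sall1 held 13 CG dinucleotides, that of Pax8 6 and that of Lhx1 26, against a median of 6 over 32851 windows of the same length. Their GC contents were 56.4%, 60.4% and 64.8%, against a median of 52.4%. RefSeq lists 2 further starts of Sall1, whose windows held 25 and 30 CG dinucleotides with GC contents of 74.4% and 78.4%. The set of start sites used here held 6 of the 10 regulators, with 10 windows in all, and need not hold every start in RefSeq. These were searched on both strands for 5 motifs. The letters were GCGGGGGCG for the zinc fingers of Wt1 and Egr factors, GTCACGC for the paired domain, TAATTA for homeodomains, CAAGGTCA for Nr5a1 and TCAGGTT for sine oculis homeobox factors. No match was found in the 10 windows, while the motifs occurred in 2.57%, 1.78%, 4.84%, 1.33% and 3.49% of all windows. The absence says only that these letters are not in these windows.

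The measurements are log2 RMA signals with 1 probe set per gene. Probe sets differ in brightness for reasons of sequence, so levels of the regulators are not set against each other. All values of the 10 regulators lay between 2.31 and 4.68, with array medians of 3.20 to 3.24 in ventral and 3.24 to 3.27 in dorsal tissue. Of the 10 regulators 7 had a mean under 4, as did 81.4% of all genes. Detection calls were not used here, so 1360 olfactory and vomeronasal receptor genes, which have little expected role in this tissue, served as a yardstick for dim signal. The differences in brightness between probe sets make this yardstick a rough one. Their 95th percentile was 4.77 to 4.96 in ventral and 4.62 to 4.71 in dorsal arrays. Among the 60 values of the regulators, the single one above it was Eya1 in dorsal array 3, at 4.67. The receptor medians were 2.52 to 2.63 in ventral and 2.62 to 2.67 in dorsal arrays. Wt1, Pax2, Sall1, Eya1, Lhx9 and Nr5a1 exceeded them on all 6 arrays, Osr1, Pax8 and Lhx1 on 5 and Emx2 on 4. Presence of the transcripts in either region was therefore not shown by these values, and a small difference can hide a larger one where a signal is near background.

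**Figure D1:**
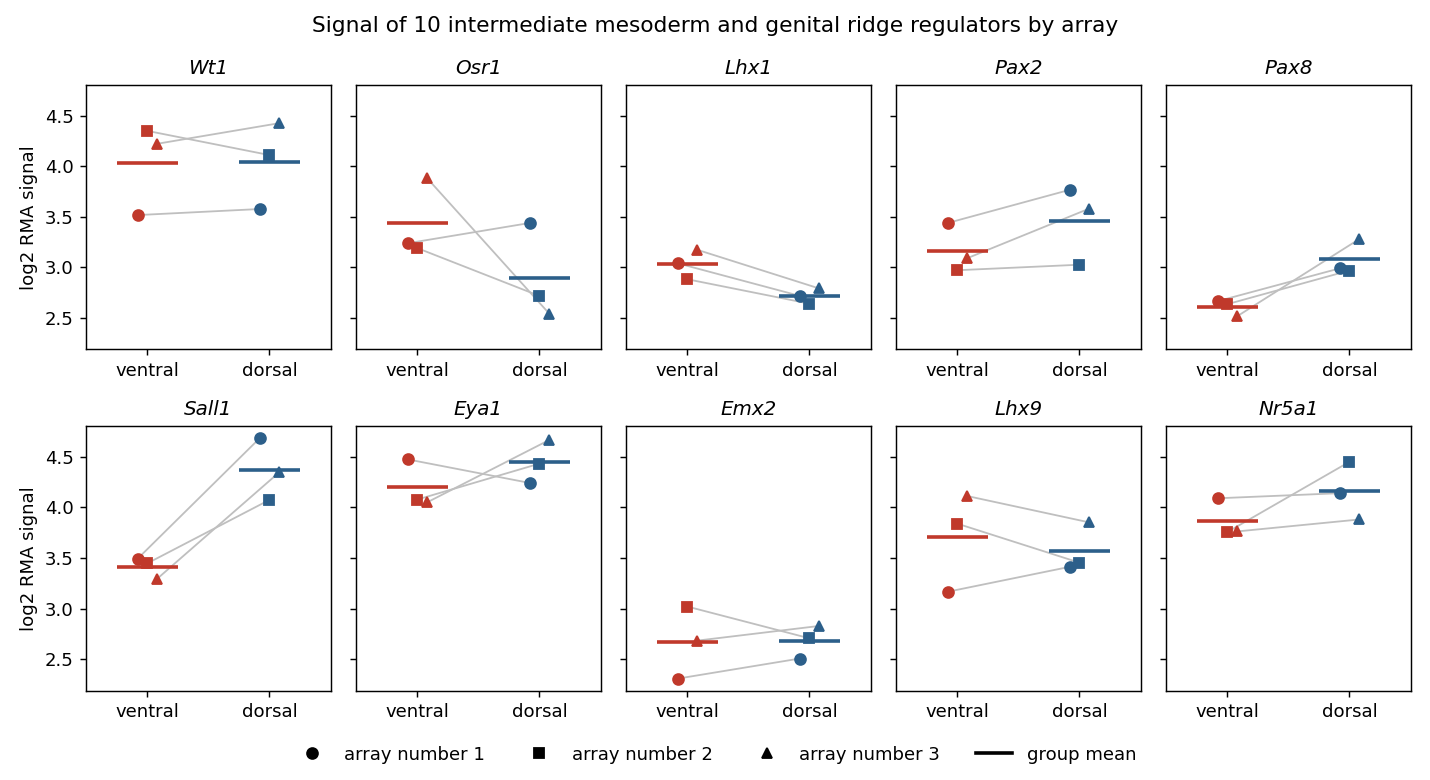
The log2 RMA signal of each regulator in the 3 ventral (red) and 3 dorsal (blue) arrays, with symbols for the array number, grey lines joining equal numbers and bars for group means. Ventral and dorsal points are apart for Sall1, Pax8 and Lhx1 and overlap in the other panels.

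Among the early regulators of the intermediate mesoderm, Osr1, a zinc finger factor needed for kidney and heart formation, had signals of 3.24, 3.19 and 3.88 in ventral arrays 1, 2 and 3, against 3.44, 2.72 and 2.54 in dorsal arrays 1, 2 and 3. Ventral array 3 was the highest and dorsal array 3 the lowest, and dorsal array 1 lay above ventral arrays 1 and 2, so the groups overlapped. The log2 difference was 0.54 ± 0.31 (SE), with a 95% interval from -0.23 to 1.30 and an adjusted p of 0.577 in limma. Osr1 had the widest interval of the 10, and its difference by number was -0.20, 0.47 and 1.34. Without both arrays numbered 3 it was 0.14, and without both numbered 1 it was 0.91.

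Lhx1, a LIM homeodomain factor required for the nephric duct, had 3.04, 2.88 and 3.17 in ventral arrays 1, 2 and 3, against 2.72, 2.64 and 2.79 in dorsal arrays 1, 2 and 3. The lowest ventral array lay above the highest dorsal array, and the ventral array was higher within all 3 numbers. The difference of 0.32 ± 0.17 (SE) had an interval from -0.10 to 0.73 and a limma adjusted p of 0.553. All 6 signals of Lhx1 lay below the median of their array.

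The paired-box factors Pax2 and Pax8 act redundantly in specifying the nephric lineage, and both had lower ventral means. Pax2 had 3.44, 2.97 and 3.09 in ventral arrays 1, 2 and 3, against 3.77, 3.03 and 3.58 in dorsal arrays 1, 2 and 3. The ventral array was the lower one within each number, but dorsal array 2 lay under ventral arrays 1 and 3. Its log2 difference was -0.29 ± 0.18 (SE), with an interval from -0.74 to 0.16. Pax8 had 2.67, 2.64 and 2.52 in ventral arrays 1, 2 and 3, against 2.99, 2.97 and 3.28 in dorsal arrays 1, 2 and 3. Here the groups did not overlap, and all ventral values lay close to the receptor medians. The log2 difference of Pax8 was -0.47 ± 0.19 (SE), with an interval from -0.93 to -0.01, and its unadjusted limma p of 0.0450 became 0.484 after adjustment. The difference was -0.41 after cyclic loess (unadjusted p 0.0742) and -0.43 after median centring (0.0645). It was -0.55 without both arrays numbered 1 (0.0784), -0.54 without those numbered 2 (0.0741) and -0.33 without those numbered 3 (0.201). Without ventral replicate 3, in a fit with no block, it was -0.43 (0.0632). In the other 9 of the 15 alternatives that held Pax8, the unadjusted limma p was under 0.05, with 0.0183 without the replicate block. Over all 15 the difference lay between -0.55 and -0.33, and the lowest adjusted p was 0.328.

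Sall1 and Eya1 are expressed in the nephrogenic mesenchyme, where Eya1, a transcriptional cofactor with phosphatase activity, is needed for kidney induction and Sall1 for its progress. Sall1 had signals of 3.49, 3.45 and 3.30 in ventral arrays 1, 2 and 3, against 4.68, 4.08 and 4.35 in dorsal arrays 1, 2 and 3. The highest ventral array lay 0.58 below the lowest dorsal array, and the 3 ventral arrays lay close together. The log2 difference was -0.96 ± 0.19 (SE), with an interval from -1.43 to -0.48. Its unadjusted limma p of 0.00285 became 0.384 after adjustment over all genes and 0.262 without the replicate block. The differences by number were -1.19, -0.63 and -1.05. In the 16 alternatives the difference stayed between -1.12 and -0.80, with unadjusted p from 0.000689 to 0.0181 and adjusted p from 0.222 to 0.634. An exact two-sided permutation test of 3 against 3 arrays cannot give a p below 0.1 for a single gene.

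Eya1 had 4.48, 4.08 and 4.05 in ventral arrays 1, 2 and 3, against 4.24, 4.43 and 4.67 in dorsal arrays 1, 2 and 3. Ventral array 1 lay above dorsal arrays 1 and 2, so the groups overlapped. The difference was -0.25 ± 0.22 (SE), with an interval from -0.79 to 0.30, and became -0.49 without both arrays numbered 1.

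Wt1, a zinc finger factor required for both kidney and gonad, had 3.52, 4.35 and 4.22 in ventral arrays 1, 2 and 3, against 3.58, 4.11 and 4.43 in dorsal arrays 1, 2 and 3. The means were 4.03 ± 0.45 in ventral and 4.04 ± 0.43 in dorsal tissue (SD, n = 3 each). The interval of the difference, -0.46 to 0.44, leaves room for a change of that size in either direction. Emx2, a homeodomain factor required for the urogenital system, had 2.31, 3.02 and 2.68 in ventral arrays 1, 2 and 3, against 2.51, 2.71 and 2.83 in dorsal arrays 1, 2 and 3. All 6 values lay below their array medians, and the interval was -0.48 to 0.46.

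Lhx9, a LIM homeodomain factor needed for gonad formation, had 3.17, 3.84 and 4.11 in ventral arrays 1, 2 and 3, against 3.41, 3.45 and 3.85 in dorsal arrays 1, 2 and 3. Its ventral arrays spread over the whole dorsal range, and the difference of 0.13 had an interval from -0.36 to 0.63. Nr5a1, also called SF1, a nuclear receptor that drives steroidogenic genes in gonad and adrenal, had 4.09, 3.76 and 3.76 in ventral arrays 1, 2 and 3, against 4.14, 4.45 and 3.88 in dorsal arrays 1, 2 and 3. The ventral array was the lower one within each number, while ventral array 1 lay above dorsal array 3. The difference was -0.29 ± 0.20 (SE), with an interval from -0.79 to 0.22.

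Wt1, Emx2 and Lhx9 shared an order over the arrays that did not follow the region. Each had its lowest ventral value in array 1 and its lowest dorsal value in array 1. Averaged over both regions, Wt1 was at 3.55 in the arrays numbered 1 and 4.28 in the other arrays, Emx2 at 2.41 and 2.81, and Lhx9 at 3.29 and 3.82. The other 7 regulators, Nr5a1 included, did not have this order, and 12.7% of all genes did. The pattern was picked after the values had been seen. Equal numbers are the only tie between samples of the 2 regions, and the labels do not state that they mark the same embryo.

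**Figure D2:**
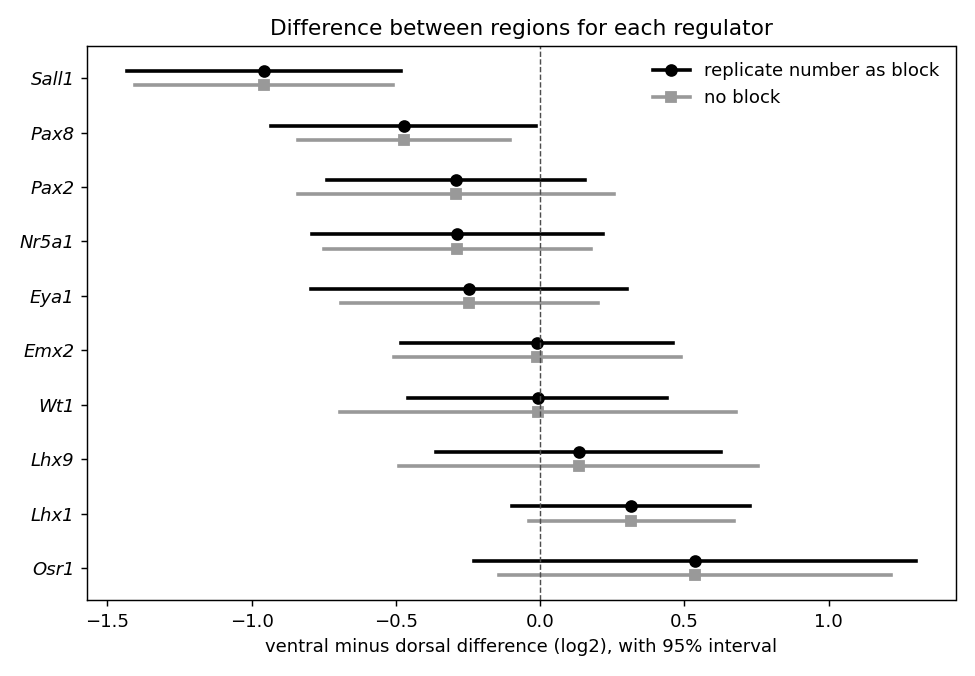
Ventral minus dorsal log2 difference of each regulator with its 95% interval, with the replicate number as a block (black circles) and without it (grey squares). The intervals of Sall1 and Pax8 lie below 0 in both fits, and the other 8 include 0.

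Counted over the set, 7 of 10 regulators had a lower ventral and 3 a higher ventral mean, against 58.0% of all genes with a lower ventral mean. The median log2 difference was -0.13 over the regulators and -0.06 over all genes. These medians were -0.135 and -0.0048 after cyclic loess and -0.0841 and -0.0158 after median centring. At an unadjusted limma p under 0.05 there were 2 regulators, Sall1 and Pax8, both lower in ventral tissue. Osr1, with a higher ventral mean, reached 0.0254 without both arrays numbered 1 and 0.0174 without dorsal replicate 1. Pax2, with a lower ventral mean, reached 0.0415 without dorsal replicate 2. The fits that left out dorsal replicate 1 or 2 had no block. With all arrays and no block, the unadjusted limma p was 0.105 for Osr1 and 0.252 for Pax2. With all arrays and the block, 10.2% of all genes had an unadjusted limma p under 0.05, 4.32% with a higher and 5.9% with a lower ventral mean. Of all genes past that limit 42.2% were higher in ventral tissue, a share that became 52.4% after cyclic loess and 53.5% after median centring. Groups without overlap occurred in 3 of 10 regulators and in 18.7% of all genes, with 6.74% of all genes higher and 12% lower in ventral tissue.

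The paralogues of the regulators served as a first comparison. Of 12 measured, 10 had a lower ventral mean, as did 58.0% of all genes. Their median log2 difference was -0.21. The lowest p in limma belonged to Eya4, a relative of Eya1 (-0.48 ± 0.17 SE, adjusted p 0.466), and Pax5, a relative of Pax2 and Pax8 that is best known from B cells (-0.38 ± 0.17, adjusted p 0.514). The other Sall genes did not show the separation seen in Sall1. Sall2 had 2.80, 2.83 and 2.56 in ventral arrays 1, 2 and 3, against 2.34, 3.37 and 3.19 in dorsal arrays 1, 2 and 3. The log2 difference was -0.27 for Sall3 and -0.03 for Sall4, and both had overlapping groups. A difference between Sall1 and its paralogues was not tested.

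Further genes of the same tissues were described by list, and no member of any list passed the adjusted threshold. Counts by list were made on the deposited values only, where 58.0% of all genes had a lower ventral mean. Of 11 nephric duct genes 9 had a lower ventral mean, with a median of -0.06. Wnt9b, a Wnt ligand of the duct that induces tubules, had 4.19 ± 0.16 in ventral and 4.62 ± 0.24 in dorsal tissue, and Cdh16, the kidney cadherin, 2.91 ± 0.06 and 3.27 ± 0.13 (SD, n = 3 each). Both had groups without overlap, and their adjusted p in limma was 0.484 and 0.520. Gata3 and Ret, a transcription factor and a receptor of the duct, had differences of -0.04 and -0.01. Of 15 genes of the nephrogenic mesenchyme and tubules 9 had a lower ventral mean, with a median of -0.06. Foxc1, a forkhead factor that is also made in somites, had a difference of -0.48 ± 0.18 (SE), and Bmp7, a survival factor for kidney progenitors, 0.44 ± 0.17. Of 20 genes of the coelomic epithelium, gonad and adrenal 12 had a lower ventral mean, with a median of -0.13. Dlk1, a transmembrane relative of Notch ligands, had -0.62 ± 0.19, and Nr0b1, a nuclear receptor that opposes Nr5a1, -0.35 ± 0.17. Unadjusted p under 0.05 was reached by 1 of 11 duct genes, 2 of 15 mesenchyme and tubule genes and 1 of 20 coelomic genes, against 10.2% of all genes.

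**Figure D3:**
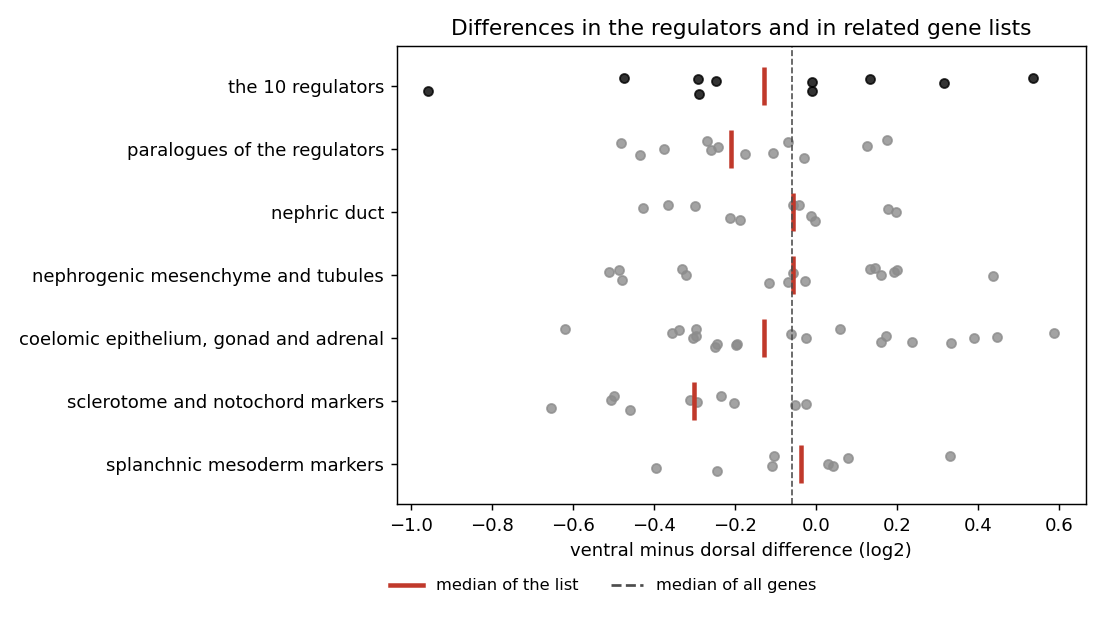
Ventral minus dorsal log2 differences of single genes (points) in the regulators and in 6 other lists, with the list medians in red and the median of all genes, -0.06, as a dashed line. Points lie on both sides of 0 in each list except that of sclerotome and notochord markers, where all 10 lie below 0.

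Over all arrays, the 5 genes most like Sall1, by Pearson correlation over the 6 arrays among 3556 genes with a mean of at least 4 that were left after predicted genes, olfactory and vomeronasal receptor genes, antigen receptor segments and small RNA genes had been set aside, were Kdm4a, a histone demethylase, Imp3, a nucleolar protein, Kctd15, a BTB domain protein, Tbx1, a T-box factor of pharyngeal mesoderm, and Sstr4, a somatostatin receptor. Their correlations lay between 0.973 and 0.995. These values describe 6 arrays that share the split by region, and genes were ranked by them, so they carry no test. Tbx1 had 4.81, 4.60 and 4.82 in ventral arrays 1, 2 and 3, against 5.92, 5.35 and 5.67 in dorsal arrays 1, 2 and 3.

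Markers of other tissues near the aorta were read beside these values. All 10 measured sclerotome and notochord markers had a lower ventral mean, as did 58.0% of all genes. Their median difference was -0.30, with summed log2 signals of 37.1 to 37.7 in ventral and 38.8 to 42.8 in dorsal arrays. The lowest p belonged to Foxc2 (-0.50 ± 0.17 SE) and Nkx3-2 (-0.51 ± 0.18), with adjusted p of 0.464 each in limma. Pax1 and Shh had differences of -0.02 and -0.05. Sall1 and Pax8 were lower on the same side, and the part of these tissues in their difference was not tested. The 8 splanchnic mesoderm markers, which mark the tissue of the ventral side, had 4 lower and 4 higher ventral means and a median of -0.04. Their summed signals were 29.5 to 29.8 in ventral and 29.0 to 30.5 in dorsal arrays. The difference was -0.40 for Foxf1 (-0.93, 0.26 and -0.52 by number) and -0.24 for Hand1 (0.02, -0.29 and -0.45). For Bmp4 it was 0.33 (-0.16, 1.14 and 0.01), a mean that rests on the arrays numbered 2. Endothelial markers had 4 higher and 2 lower ventral means and a median of 0.05, with 0.18 for Kdr, 0.13 for Emcn, -0.06 for Cdh5 and -0.05 for Pecam1. The differences by number were 0.53, -0.03 and 0.03 for Kdr and 0.75, -0.24 and -0.11 for Emcn, so both means rest on the arrays numbered 1. The endothelial list had summed signals of 17.8 to 19.4 in ventral and 17.7 to 18.3 in dorsal arrays. For 5 red blood cell genes the sums ran from 29.4 to 43.2 in ventral and from 32.0 to 40.2 in dorsal arrays. The difference was 1.30 for Hbb-bs (1.33, 1.51 and 1.05 by number), with overlapping groups. For Hbb-y it was -0.37 (-1.41, 0.25 and 0.06), a mean that rests on the arrays numbered 1. The 5 neural and neural crest markers had sums of 14.3 to 20.8 in ventral and 15.1 to 16.3 in dorsal arrays, with 3 higher and 2 lower ventral means. The difference was -0.51 for Tfap2a (-0.35, -0.72 and -0.45 by number) and 0.31 for Sox10 (-0.46, 0.75 and 0.65). The highest sum of these markers came from ventral array 1, where Sox2, a factor of neural progenitors, was at 7.61. It was at 2.20 and 2.72 in the other ventral arrays, and at 2.28, 2.57 and 2.73 in dorsal tissue. Without ventral replicate 1 the difference was -0.997 for Sall1, -0.50 for Pax8, 0.31 for Lhx1 and 0.25 for Wt1.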

How the data were processed

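The authors deposited 1 table of log2 values for 25429 probe sets and 6 arrays, with Affymetrix Expression Console and RMA named per the submitters' processing notes and no versions given. RMA corrects background, normalises between arrays and summarises probes, and it can compress differences of dim genes. The log base was taken from the values. The platform annotation gave 1 symbol to 24675 probe sets, and 754 stayed unnamed. The comparison of ventral with dorsal arrays used limma 3.58.1 in R 4.3.3 (lmFit and eBayes, two-sided, Benjamini-Hochberg over 24675 genes), without a filter on dim genes. The procedure was tested on simulated data with independent normal noise, no replicate effect and no outlying array. That test therefore does not bear on the block or on single outlying arrays.

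The replicate number entered as a block, since per the labels the 2 regions were cut from the same embryos. The labels do not tie single samples, and deviations from group means correlated at 0.04, -0.01 and 0.06 between arrays numbered 1, 2 and 3. The p-values reflect only the spread among these arrays, and the number of arrays limits the precision. Scan dates were not used here. Alternatives were the fit without the block, cyclic loess, median centring, 2 filters on dim genes, array weights, robust eBayes with a trend, and leaving out numbers or arrays. Fits that left out both arrays of a number kept the block. Fits that left out 1 array had no block, so they differ from the first fit in both respects. The members and lists were chosen with earlier results of these data known. All 10 members are named, for each other list the 2 genes with the smallest p, and further genes (Gata3, Ret, the Sall paralogues, Pax1, Shh, Bmp4, Cdh5, Pecam1, Sox10) after their values were seen.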

Additional observations from a re-analysis of the deposited data

How the results depend on the processing

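No regulator passed an adjusted p of 0.05 in limma under any alternative that was run. Sall1, Pax8, Pax2, Lhx1, Osr1, Eya1 and Nr5a1 kept their direction in each alternative that held them. Emx2 became 0.0743 after cyclic loess and 0.0339 after median centring, and Wt1 became 0.0357 after median centring. Leaving out arrays gave -0.24 to 0.25 for Wt1, -0.18 to 0.17 for Emx2 and -0.0701 to 0.403 for Lhx9. The number of regulators at an unadjusted p under 0.05, counted in an alternative chosen after seeing the data, was 1 after cyclic loess, 1 after median centring and 1 of the 6 kept when genes under the median signal were left out. Leaving out arrays gave 1 to 3, with Sall1 and Osr1 but not Pax8 without both arrays numbered 1, Osr1 added without dorsal replicate 1, Pax2 added without dorsal replicate 2, and 1 regulator without both arrays numbered 2, without both numbered 3 and without ventral replicate 3. The median over the regulators lay between -0.19 and -0.0016 when arrays were left out. It was -0.246 over the 9 and -0.267 over the 6 regulators kept by the filters at the 25th percentile and at the median of mean signal. The medians over all genes kept by these filters were -0.0272 and -0.00635. The filters changed no difference of a kept regulator, so the regulators' median moved only because regulators were dropped.

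Without the replicate block limma called 1 of 24675 genes, which is no regulator, and the block changed no call of a regulator. Leaving out arrays gave 0 to 5 called genes over the whole table, with 5 without both arrays numbered 1, 2 without both numbered 3, 3 each without ventral replicate 1, ventral replicate 2 and dorsal replicate 3, and 1 without ventral replicate 3. The fits that left out 1 array also dropped the block, so their counts mix both changes. Genes at an unadjusted limma p under 0.05 numbered 2522, and 2765 without the block. They numbered between 1847 and 3235 when arrays were left out. Above the median signal there were 1164 of 12338, where fewer genes were tested. Of the regulators' 60 values 59 lay within the range of the receptor genes up to their 95th percentile, which limits what can be seen for all 10, and Osr1, Pax8, Lhx1 and Emx2 fell to or under the receptor median on at least 1 array.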
